A study of Mus musculus with 2 samples.

Results

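Among the wild-type cells of mouse esophageal epithelium at embryonic day E18.5, 553 were chosen by the levels of 12 genes as basal cells in S phase, the stage of the cell cycle in which DNA is copied. A cell was taken when Slfn9, Mybl2, Clspn, Ccne2, Exo1 and Cdc6 together reached at least 2 CP10K (UMIs, unique molecular identifiers, per 10000 UMIs of the cell). The mitosis genes Mki67, Top2a, Nusap1 and Ube2c together had to stay under 10 CP10K, and the squamous keratins Krt13 and Krt4 together under 60 CP10K. The 553 cells were 14.5% (exact binomial 95% interval 13.4 to 15.7%) of the 3811 wild-type cells under that keratin limit. They came from 5787 wild-type cells that held 500 genes and 1000 UMIs or more and no more than 10% of mitochondrial UMIs, out of 6034 barcodes in that library and 8855 in the series. The other 3258 low-keratin cells were the comparison.

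Tissue of C57BL/6 embryos was stripped of its muscle layer, dissociated with dispase and trypsin, and sequenced with a droplet chemistry that reads the 3' ends of transcripts. There was 1 library of genotype p63-CreER, labelled wild type, and 1 library of littermates of genotype p63-CreER/p63-CreER, labelled p63-KO. The CreER allele is named for the p63 gene, both libraries carried it, and the labels record no tamoxifen. How many embryos went into a library is not given in the sources used here. Of the S phase cells, 316 held UMIs of Xist and of no Y-linked gene and 155 the reverse, so more than 1 embryo contributed. The share of low-keratin cells in S phase was 13.995% (12.6 to 15.5%) among Xist-only cells and 15.2% (13.0 to 17.5%) among Y-only cells. With 1 library per genotype and cells that are not replicates, no difference was tested. All intervals are 95% intervals that cover counting error only.

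In G1, the origin recognition complex, Cdc6 and Cdt1 load the ring-shaped Mcm2 to Mcm7 helicase onto origins of replication. Cyclin D with Cdk4 and cyclin E with Cdk2 inactivate the retinoblastoma proteins, which frees E2F factors to switch on the genes for replication. Cdc45 and the GINS complex then turn the helicase on, polymerases follow, and nucleotide synthesis, chaperones for new histones and repair of stalled forks keep pace. In the esophagus, dividing cells sit in the basal layer, next to the basement membrane, and cells that leave it gain Krt13 and Krt4.

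Because E2F sites are the textbook switch of this program, the 250 bases upstream of the RefSeq start (GRCm38.p6) were searched on both strands for TTTGGCGC, TTTCGCGC, TTTGCCGC and TTTCCCGC. Of the 4 genes of the rule's S phase sum with a window in the table, Cdc6 held a match, and Slfn9, Mybl2 and Clspn held none of these letters. The stretches shown are from Cdc6, which licenses origins, from Pola1, the catalytic subunit of DNA polymerase alpha, and from Uhrf1, which recruits the maintenance DNA methyltransferase. They are printed 5′ to 3′ on the gene's own strand, with the match in capitals.
Cdc6, chr11:98907983-98908050, plus strand: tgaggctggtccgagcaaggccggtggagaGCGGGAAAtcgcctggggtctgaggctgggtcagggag
Pola1, chrX:93632256-93632323, minus strand: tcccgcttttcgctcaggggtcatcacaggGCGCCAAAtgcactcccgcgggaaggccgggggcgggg
Uhrf1, chr17:56304098-56304165, plus strand: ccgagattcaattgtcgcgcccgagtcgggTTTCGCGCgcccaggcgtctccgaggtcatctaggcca
The match begins 138 bases before the RefSeq start in Cdc6 and Pola1. In Uhrf1 it begins 185 bases before the downstream of 2 RefSeq starts, and the window of the upstream start holds no match. The Cdc6 and Uhrf1 stretches lie within the GENCODE M21 gene span, outside its exons. A match was found for 13.9% of the genes at least 1.5-fold higher in the S phase cells (55 of 396 found in the table), 2.31% of those at least 1.5-fold lower (5 of 216) and 3.98% of the genes between (272 of 6828). Over all 7449 measured genes with a window the share was 4.47%. By role it was 7 of 19 origin and helicase genes (Orc1, Orc3, Mcm5, Mcm6, Mcm7, Gins3 and Topbp1), 4 of 17 chromatin genes, 6 of 24 genes of G1/S control, 2 of 25 fork genes, 2 of 23 repair genes and 1 of 19 nucleotide genes. Outside replication it was 2 of 29 mitosis, 1 of 16 basal and 1 of 12 squamous genes, shares near those of the fork, repair and nucleotide lists. A match describes the letters in the window and not a bound site. Variants of the 4 strings were not searched, so a window without a match is not shown to lack an E2F site. Orc3, which holds a match, was not higher in the S phase cells (log2 ratio -0.18).

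The values that chose the cells are given as a description. The summed level of the 6 genes ranged from 2.003 to 23.2 CP10K with a median of 4.44. It rested on 1 UMI in 33 cells and on at least 5 UMIs in 305. All 6 genes were found in 29 cells and a single gene in 54. In CPM (UMIs per 1e+06, summed over cells), Cdc6 stood at 52.8 in the S phase cells and 4.36 in the comparison, Mybl2 at 60.8 and 6.99, and Ccne2, which encodes cyclin E2, at 55.5 and 7.02. Exo1, a DNA exonuclease, stood at 83.8 and 12.9, Slfn9, a Schlafen family gene, at 112 and 14.4, and Clspn, the fork protein claspin, at 134 and 24.1. When each gene in turn was kept out of the choice and the cells were taken by the other 5, that gene was 4.36-fold (Clspn) to 7.40-fold (Cdc6) higher. All cells taken in this way were already among the S phase cells. The 6 genes were also chosen with earlier results of these data known. These folds are therefore no independent check of the choice.

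The limit cut through a continuous range. The 79 cells just inside it (2 to 2.5 CP10K) had mean levels per cell of 0.553 CP10K for Clspn, 0.762 for Rrm2, 2.71 for Pola1 and 1.96 for Hells. The 106 cells just outside it (1.5 to 2 CP10K) had 0.371, 0.410, 2.11 and 1.57.

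The comparison held several kinds of cell. In 1353 cells, called resting here, no UMI of the 6 S phase or 4 mitosis genes was found. Another 702, called mitotic here, reached 10 CP10K of the mitosis genes, and 223 of these also reached the S phase limit. The other 1203 lay between. These are ranges of the same 10 genes, not cell types. The name resting stands for no UMI found, which also depends on depth. Resting cells reached up to 96.2 CP10K in the sum of 57 replication genes described below, and whether they were out of the cell cycle was not tested. The name mitotic stands for the summed level of the 4 mitosis genes alone, and the name S phase for the limits of the rule. Whether the cells of either group were in the stage of the cell cycle that names them was not tested. The S phase cells were deeper than the resting but not the mitotic cells. The median of the S phase cells was 12136 UMIs per cell (range 1223 to 46211), against 8910 in resting, 14570 in mitotic and 9882 in all comparison cells. Of 8 barcodes found in both libraries, 1 was among the S phase cells. Doublet scoring marked 3.44% of the S phase cells, 0.665% of the resting and 7.41% of the mitotic cells.

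The cells carried the markers of basal cells. Krt15 was found in all 553, Krt5 in 97.8%, Krt14 in 90.8% and Trp63, the gene for p63, in 90.2%. Krt5 stood at 1007 CPM (983 to 1031), against 1017 in resting and 461 in the 1976 cells with Krt13 and Krt4 at or above the limit. Krt14 stood at 481, 507 and 95.2 CPM in the same order, and Trp63 at 389, 452 and 142. Krt15 went the other way, at 8915 CPM in S phase, 10139 in resting and 11266 in keratin-high cells. Col17a1 stood at 346, 371 and 105 CPM in the same order, Itga6 at 98.9, 133 and 63.4, and Itgb4 at 141, 180 and 46.2. The S phase cells were thus level with resting cells in Krt5. Beyond the counting intervals they were below them in Trp63, Krt15, Itga6 and Itgb4. They were above the keratin-high cells in each of these markers but Krt15. Rrm2, the remaining marker of the label, is not part of the rule and was found in 65.5% of the cells against 20.6% of the comparison.

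Markers of other cell types were low, with one exception. Cdh5, Kdr, Emcn and Cldn5 of 6 endothelial markers were at 0, as were Des of 5 muscle, Lyz2 and Tyrobp of 6 immune, and Scg2, Sst and Resp18 among 7 neuroendocrine markers, and each of these lists summed to less than 2 CPM. Of the 8 fibroblast markers Postn was at 0, and they summed to 141 CPM in the S phase cells, 140.0 in the comparison, 285 in resting and 24.0 in keratin-high cells. Nearly all of the Col3a1 (171 of 172 UMIs) lay in 3 cells with at least 3 of these markers, while Dcn, a matrix proteoglycan, was found in 37.8% of the S phase cells and 34.8% of the comparison. The 8 ciliated cell markers summed to 21.8 CPM against 79.2. Their part in the results was not tested beyond leaving out the cells with at least 3 UMIs of such markers, 64 of them in S phase.

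Over 9301 genes with at least 10 CPM in either group, the rule's genes left out, 506 (5.44%) were at least 1.5-fold higher in the S phase cells and 284 (3.05%) at least 1.5-fold lower, on a log2 scale with 1 CPM added. The median log2 ratio was -0.04. Against resting cells alone, 865 (9.25%) of 9353 measured genes passed 1.5-fold upward and 349 (3.73%) downward. All genes outside the rule come from the same cells as the rule's, so these counts describe the cells and support nothing on their own.

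Origins and helicase came first in the order of replication. Of 25 measured genes, 21 were at least 1.5-fold higher, none was as much lower, and the median log2 ratio was 1.44. Mcm10, which helps to activate the helicase, stood at 49.1 CPM in S phase, 1.11 in resting, 19.8 in mitotic and 2.17 in keratin-high cells, 6.17-fold (5.24 to 7.27) over the comparison. Cdc45, the helicase's partner, stood at 46.7 CPM against 8.77 in the comparison, 5.33-fold higher (4.54 to 6.26). All 6 Mcm ring subunits were at least 1.5-fold higher, from 2.86-fold for Mcm7 (156 against 54.6 CPM) to 4.01-fold for Mcm3 (191 against 47.7 CPM). Cdt1, the loader, stood at 94.96 CPM against 22.0 in resting and 17.5 in mitotic cells, and Gmnn, its inhibitor geminin, at 194, 31.8 and 139. The loader was therefore near its resting level in mitotic cells while its inhibitor was not. The 4 genes within 1.5-fold were Dbf4, Orc3, Orc4 and Orc5.

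At the fork, 30 of 31 genes were at least 1.5-fold higher (median log2 ratio 1.45), and against resting cells all 31 were. Pola1 stood at 396 CPM (381 to 411) in S phase, 68.6 in resting, 134 in mitotic and 32.9 in keratin-high cells, 3.85-fold (3.66 to 4.05) over the comparison. Per cell, the quartiles of Pola1 in the S phase cells were 1.81 and 5.37 CP10K, and the comparison median was 0. Pole, the catalytic subunit of polymerase epsilon, stood at 75.9 against 17.4 CPM, Pcna, the sliding clamp, at 279 against 84.5 CPM, and Lig1, which seals the lagging strand, at 203 against 55.2 CPM. Dscc1, of an alternative clamp loader, and the nuclease Dna2 had the largest ratios of the fork list (5.53-fold and 5.12-fold). Pole3 alone stayed within 1.5-fold (log2 ratio 0.55).

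**Figure D1:**
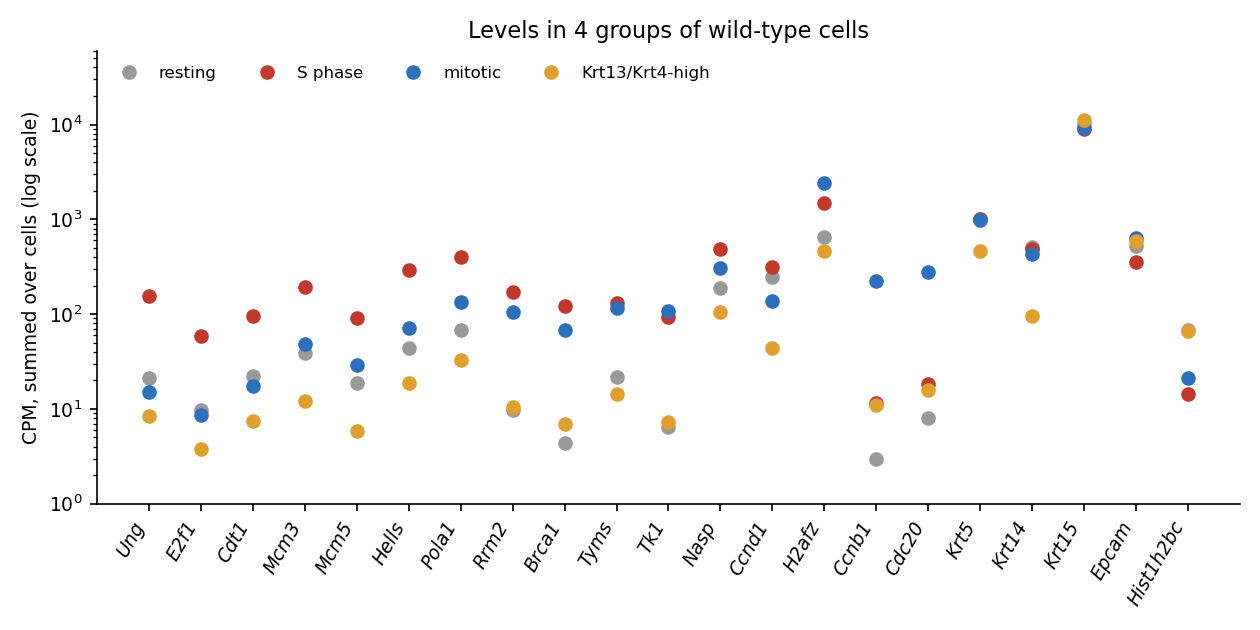
Level of 21 genes in CPM (log axis, UMIs summed over cells) in resting, S phase, mitotic and Krt13/Krt4-high wild-type cells, 1 point per group. Ung, E2f1 and Cdt1 are high in the S phase cells alone, Rrm2, Brca1 and Tk1 are also high in the mitotic cells, and Krt5 is level in the first 3 groups (976 to 1017 CPM).

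Nucleotide supply was less uniform: 14 of 20 genes passed 1.5-fold upward and none downward (median log2 ratio 0.99). Rrm2 (chr12:24708241-24714146, plus strand), the small subunit of ribonucleotide reductase, stood at 171 CPM against 9.84 in resting and 105 in mitotic cells, and was 4.29-fold higher (3.96 to 4.65) than in the comparison. Tk1, thymidine kinase, was far above resting cells (6.42 CPM) in both S phase (92.997 CPM, 85.8 to 101) and mitotic cells (107 CPM). Dut, which removes dUTP, stood at 438 against 208 CPM. The 6 genes within 1.5-fold were Impdh2, Atic, Gart and Paics of purine synthesis, the CTP synthase gene Ctps, and Nme1.

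Chromatin genes split. Of 20, 12 were at least 1.5-fold higher and H2afx at least 1.5-fold lower (median log2 ratio 0.92). Hells, a chromatin remodeler needed for DNA methylation, stood at 295 CPM (282 to 308), against 43.5 in resting and 70.9 in mitotic cells, 4.58-fold (4.31 to 4.87) over the comparison. Uhrf1 stood at 266 against 73.6 CPM in the comparison, Chaf1b, of the histone chaperone CAF-1, at 54.3 against 13.4 CPM, and Nasp, which carries soluble histone H3, at 492 against 248 CPM. The variant histone gene H2afx was lower against the whole comparison but not against resting cells: it stood at 141 CPM in S phase, 54.3 in resting and 773 in mitotic cells. H2afz (1486, 657 and 2423 CPM) and Hmgb2 (551, 171 and 1687 CPM) were ordered the same way, with S phase between resting and mitotic.

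Of 28 repair and checkpoint genes, 26 were at least 1.5-fold higher, none was as much lower (median log2 ratio 1.35). Ung (chr5:114130386-114139323, plus strand, mm10), which cuts uracil out of DNA, had the largest log2 ratio of all listed genes outside the rule (2.55): 155 CPM (145 to 165) in S phase, 21.2 in resting, 15.2 in mitotic and 8.49 in keratin-high cells, 6.04-fold (5.51 to 6.61) over the comparison. It was found in 78.7% of the S phase cells and 17.6% of the comparison. With each cell thinned to 5000 UMIs and groups kept as they were, the shares were 53.3% and 11.1%, against 9.31% of resting cells. Brca1 differed in keeping a high level in mitotic cells, with 121 CPM in S phase, 4.37 in resting and 68.5 in mitotic cells. Atr and Atrip, the kinase and its partner at stalled forks, stayed within 1.5-fold (log2 ratios 0.25 and 0.01).

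In G1/S control, 15 of 33 genes passed 1.5-fold upward and 2, Ccna2 and Cdkn2d, downward (median log2 ratio 0.51). The activator E2f1 stood at 58.4 CPM against 9.67 in resting and 8.66 in mitotic cells, 5.54-fold (4.79 to 6.402) over the comparison, and E2f2 at 17.2 against 2.41 CPM in the comparison. The repressors E2f7 and E2f8 were as high in mitotic cells (47.7 and 65.5 CPM) as in S phase (51.3 and 66.4 CPM), and near 0 in resting cells (1.03 and 2.996 CPM). Ccne1, cyclin E1, stood at 62.5 against 13.0 CPM in the comparison, 4.801-fold higher. The D cyclins moved little by comparison: Ccnd1 stood at 314 against 213 CPM (1.48-fold, 1.41 to 1.55) and Ccnd2 at 959 against 763 CPM (1.26-fold). Ccna2, cyclin A2, stood at 42.6 CPM, between resting (4.11 CPM) and mitotic cells (232 CPM).

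**Figure D2:**
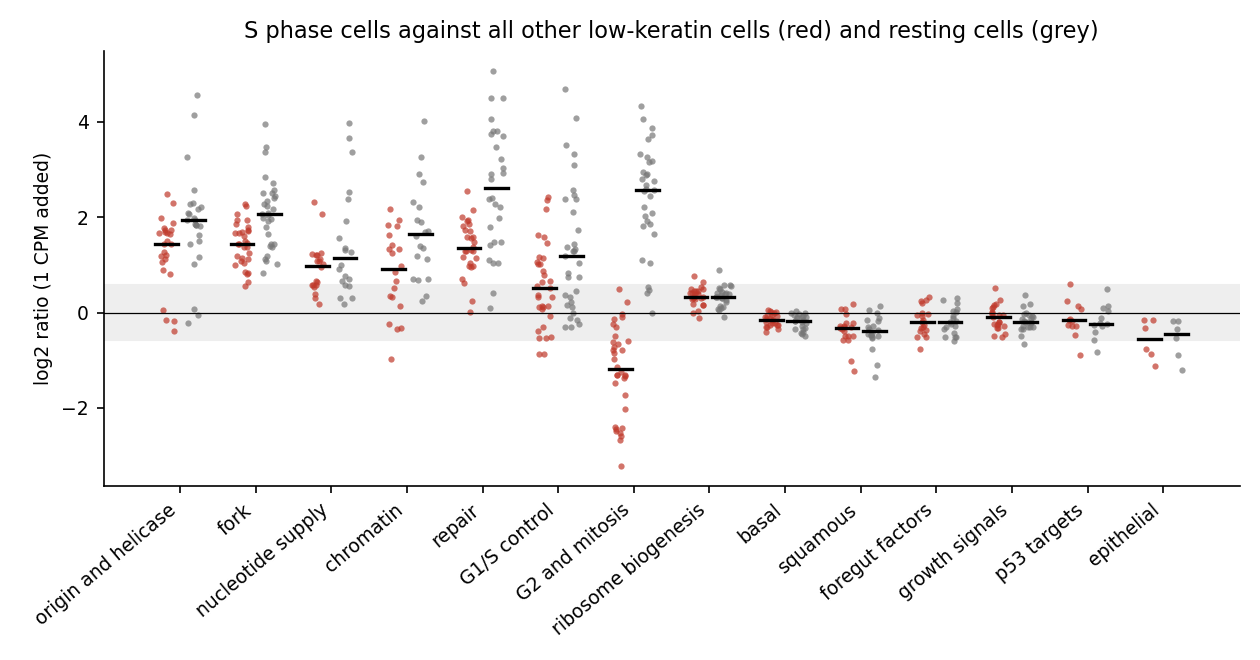
Log2 ratio (1 CPM added) of each measured gene of 14 lists, S phase cells against all other low-keratin cells (red) and against resting cells (grey, for genes also at 10 CPM there), 1 point per gene, with medians as black bars and the range within 1.5-fold shaded. The medians of the first 5 lists lie above the shading in both, and the mitosis list changes side, from a median of -1.19 to 2.58.

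Of the 34 mitosis genes outside the rule, 26 were at least 1.5-fold lower in the S phase cells than in the whole comparison (median log2 ratio -1.19), and 28 of 32 were at least 1.5-fold higher than in resting cells (median 2.58). The grouping bears on both directions: the rule bars cells with high Mki67, Top2a, Nusap1 and Ube2c, and resting cells are those with none of their UMIs. Cenpf, a kinetochore protein, stood at 39.3 CPM in S phase, 10.1 in resting and 778 in mitotic cells. Ccnb1, cyclin B1, stood at 11.5, 2.996 and 225 CPM. Smc2, of condensin, stood out with 161, 20.03 and 308 CPM.

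Few of the genes that mark the tissue passed 1.5-fold, beside 5.44% of all measured genes upward and 3.05% downward. None of 23 measured basal genes was 1.5-fold higher or lower (median log2 ratio -0.15), nor was any of 23 growth signal genes (median -0.09). For these 2 lists that is near the shares of all genes. Summed per cell over 26 basal genes, the median was 148 CP10K in S phase and 165 in the comparison. Of 19 foregut transcription factors Hopx alone passed 1.5-fold, at 8.17 against 14.6 CPM. Pax9 stood at 159 against 228 CPM and Nfib at 649 against 564 CPM. Of 20 squamous genes, Mal (11.95 against 29.3 CPM) and Grhl3 (8.77 against 18.7 CPM) were at least 1.5-fold lower (median of the list -0.32). Among 12 p53 targets, Aen was at least 1.5-fold higher (32.1 against 20.9 CPM) and Sesn2 lower (5.59 against 11.2 CPM). With cells thinned to 5000 UMIs and chosen anew, Hopx, Grhl3 and Sesn2 were within 1.5-fold (log2 ratios -0.08, -0.48 and -0.19). In Y-only cells Aen was too (0.42). Mal stayed at least 1.5-fold lower in all 26 alternatives described below (log2 ratio -0.71 or lower). A list of 25 genes of ribosome biogenesis and polyamine synthesis had a median of 0.33. In it Nolc1 (128 against 74.6 CPM) and the spermidine synthase gene Srm (65.2 against 41.3 CPM) passed 1.5-fold. That is 2 of 25, beside 5.44% of all measured genes.

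General epithelial genes were an exception, with 3 of 6 measured at least 1.5-fold lower. Epcam (chr17:87635979-87651129, plus strand), an epithelial adhesion molecule, stood at 357 CPM (343 to 372) in S phase against 521 in resting, 635 in mitotic and 593 in keratin-high cells, and was 1.71-fold (1.64 to 1.79) lower than in the comparison. Krt8, a keratin of simple epithelia, stood at 112 against 206 CPM and its partner Krt18 at 22.1 against 49.1 CPM. Krt18 was about as low in mitotic cells (25.5 CPM). Epcam was thus lowest in the S phase cells among these 4 groups, while the share of cells with an Epcam UMI, 91.0% against 93.1%, was near that of the comparison.

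Outside the lists, the 12 highest ratios in genes at 50 CPM or more belonged to Fam111a, Kntc1, Dtl, Rmi2, Zgrf1, Cenph, Wdr76, Zfp367, Cenpk, Ncapg2, Rad54b and Hs6st2. Dtl, which targets Cdt1 for destruction, stood at 203 against 53.8 CPM (3.78-fold, 3.52 to 4.06). Kntc1, Cenph and Cenpk, all of the kinetochore, stood at 83.3, 116 and 77.4 CPM against 2.91, 10.7 and 5.22 in resting cells. Hs6st2, a heparan sulfate sulfotransferase with no replication role in the lists used here, stood at 88.5 CPM against 30.7 in resting and 30.1 in mitotic cells. Among the 12 lowest, Hist1h2bc, Hist1h1c and H1f0 are histone genes that were also lower than in resting cells: Hist1h2bc stood at 14.2 CPM against 67.9, Hist1h1c at 15.1 against 34.5, and H1f0, a linker histone, at 111 against 169.6. Hist1h2bc was found in 11.0% of the S phase cells and 33.8% of the comparison. The other 9 (Racgap1, Cks2, Nde1, Lockd, Pttg1, Tuba1c, Arl6ip1, Cdca3 and Aspm) were at least as high in S phase as in resting cells and highest in mitotic cells.

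Per cell, the origin, helicase and fork genes were summed, 57 genes of which the rule used none. The quartiles of the S phase cells were 43.1 and 66.6 CP10K and the median 55.4. The medians were 10.9 in resting, 27.1 in mitotic and 5.82 in keratin-high cells. Above 28.8 CP10K, the level that 90% of the resting cells stayed under, lay 507 of the 553 S phase cells (91.7%). So did 722 of the 3258 comparison cells (22.2%), 333 of them mitotic, so the comparison also held cells with many replication transcripts. With cells thinned to 5000 UMIs, 92.7% of the S phase cells lay above the same percentile. The 46 S phase cells below it are part of all values given here. The grouping bears on these shares: resting cells were chosen for no UMI of the 6 S phase genes, which the S phase cells had to hold. The shares are therefore no independent check of the choice.

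**Figure D3:**
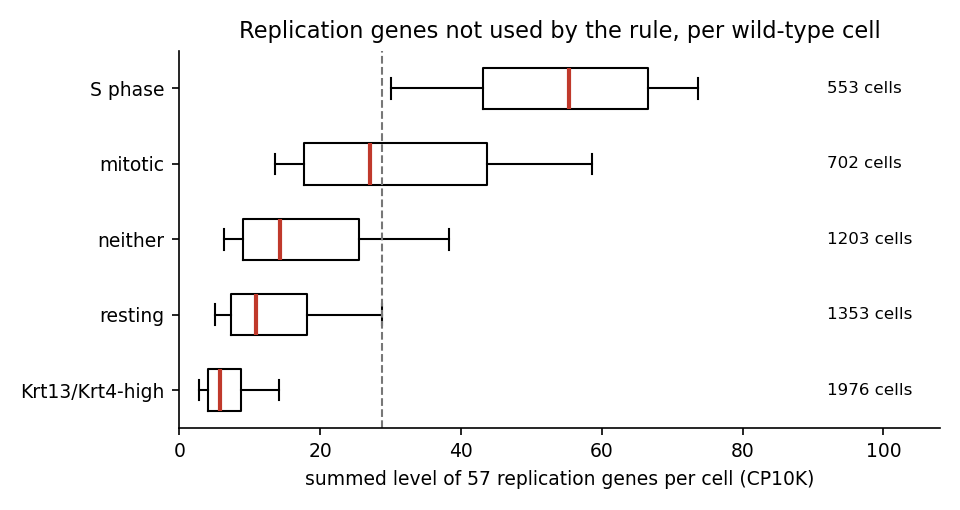
Summed level of 57 origin, helicase and fork genes per cell in CP10K for 5 groups of wild-type cells; boxes span the quartiles, red lines are medians, whiskers reach the 10th and 90th percentiles, and the dashed line is the 90th percentile of resting cells (28.8). The S phase box (43.1 to 66.6) lies wholly above that line, and resting cells were chosen for holding no UMI of the rule's S phase genes.

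The S phase cells differed among themselves in their mitosis genes, which were at 0 in 146 cells, above 0 and under 4 CP10K in 238, and from 4 to under 10 CP10K in 169. Over these 3 classes Ung was nearly level at 138, 158 and 161 CPM, as was Mcm5 at 90.1, 89.3 and 95.9 CPM. Rrm2 was graded, at 68.3 (55.2 to 83.6), 149 (136 to 163) and 266 CPM (245 to 289). Ccne1 stood at 37.8, 50.03 and 95.9 CPM, Pcna at 204, 266 and 346 CPM, and Ccna2 at 13.8, 27.9 and 82.0 CPM. Ccnd1 went the other way, at 357, 323 and 275 CPM, and Epcam was level at 371, 352 and 355 CPM. So the classes were alike in Ung, Mcm5 and Epcam and differed in Rrm2 and Ccna2 beyond their counting intervals. Their median depths were 9710, 12646 and 13201 UMIs, and the part of depth in this grading was not tested.

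Over the low-keratin cells with few mitosis transcripts, grouped by the sum of the 6 S phase genes, the levels of other replication genes climbed beyond the limit. In 1992 cells with the sum at 0, 564 under 2 CP10K, 238 from 2 to under 4, 235 from 4 to under 8 and 80 from 8 upward, Pola1 stood at 64.5, 156, 308, 457 and 491 CPM. Rrm2 stood at 9.31, 25.4, 106, 206 and 269 CPM, and Ung at 17.6, 60.1, 126, 174 and 187 CPM. Epcam stood at 631, 527, 389, 339 and 307 CPM, and Krt15 at 10351, 9733, 9350, 8687 and 8207 CPM. Krt5 stayed between 965 and 1052 CPM. The intervals of the last 2 classes overlapped for Epcam (318 to 361 and 271 to 347), Pola1 and Ung. Median depths of the classes were 8983, 11049, 11379, 12595 and 12193 UMIs, and the part of depth was not tested. Cells that the limit leaves out, with a sum above 0, thus already held more than 2-fold the Pola1 and Ung of cells at 0.

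Across the squamous keratins, the share of S phase cells was 11.6% of 388 cells with Krt13 and Krt4 under 5 CP10K, 16.3% of 2117 from 5 to 20, and 12.5% of 1306 from 20 to 60. Above the limit the same rule took 4.28% (3.11 to 5.72%) of 1005 cells from 60 to 200 CP10K and 0.309% (0.0638 to 0.900%) of 971 cells at 200 or more. Mitotic cells made up 22.2, 21.4, 12.6, 4.78 and 0.515% of the same bins. At equal depth of 5000 UMIs, where 1 UMI of a rule gene is enough, the S phase shares were 19.3, 21.4, 20.4, 10.4 and 2.68%. The lower 3 bins did not differ beyond their intervals then, and both shares were lower in the upper 2 bins at either depth. Depth was not equal between bins (medians 8448 to 15830 UMIs).

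**Figure D4:**
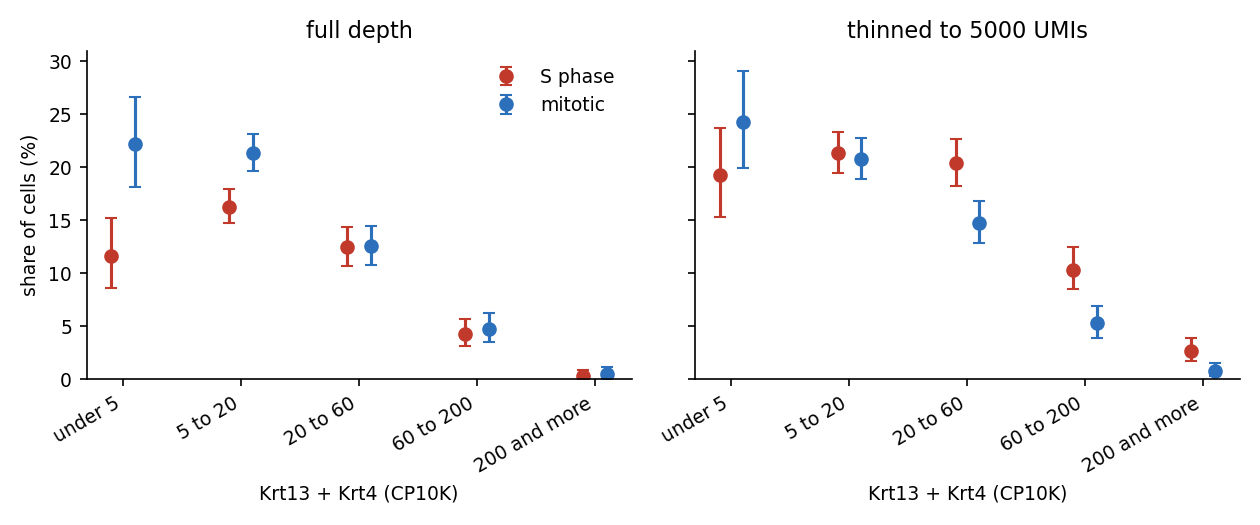
Share of wild-type cells in S phase (red) and mitotic (blue) in 5 bins of summed Krt13 and Krt4 in CP10K, at full depth and with cells thinned to 5000 UMIs; bars are exact binomial 95% intervals. S phase shares stay between 11.6 and 16.3% in the 3 low bins at full depth and reach 0.309% in the highest.

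The p63-KO library had no part in choosing the wild-type cells. The same rule took 97 of its 2122 low-keratin cells (4.57%, 3.72 to 5.55%), and 71 of the 1602 with a UMI of the epithelial genes Epcam or Cdh1 (4.43%, 3.48 to 5.56%), against 14.4% (13.3 to 15.6%) of such wild-type cells. Thinned to 5000 UMIs the shares of these epithelial cells were 11.9% (10.3 to 13.6%) and 20.8% (19.4 to 22.2%). The p63-KO cells were deeper (median 22098 UMIs against 10283), and genotype and library cannot be told apart. There were 0.740 S phase cells per mitotic cell in p63-KO and 0.793 in wild type at full depth, but 2.07 and 1.09 after thinning, so the order of this ratio depends on depth. In the 71 p63-KO cells that met the rule, no UMI of Krt5 and 5 UMIs of Krt14 (1.55 CPM) were found, while Krt15 stood at 5080 CPM, Krt8 at 1282 CPM and Epcam at 1140 CPM.

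The replication genes were higher in both libraries. In each library the cells were taken by the same 6 S phase genes, so this is no independent check of the choice. Between the 71 p63-KO cells and the other 1531, 714 of 9948 measured genes (7.18%) were at least 1.5-fold higher and 551 (5.54%) as much lower. Of genes measured in both libraries, 21 of 25 origin and helicase genes, 29 of 31 fork genes, 24 of 26 repair genes, 13 of 20 nucleotide genes and 12 of 20 chromatin genes were at least 1.5-fold higher in each. The share of all genes measured in both libraries that passed in each was not counted. Within 1 library it was 5.44% in wild type and 7.18% in p63-KO. Rrm2 was 5.41-fold (4.73 to 6.17) higher in p63-KO, Pola1 5.19-fold (4.82 to 5.59), E2f1 6.10-fold (5.10 to 7.26) and Ung 4.62-fold (4.02 to 5.30). Epcam, lower in the wild-type S phase cells, was at 0.954-fold (0.923 to 0.986) in p63-KO, and Krt8 at 1.10-fold. The differences between the libraries were not tested. Other markers moved with the p63-KO contrast. At least 1.5-fold higher were 5 of 5 measured endothelial markers (median log2 ratio 1.25), the 1 measured immune marker (2.94) and 2 of 5 muscle markers. At least 1.5-fold lower were 6 of 6 neuroendocrine markers (median -3.47) and 1 of 7 fibroblast markers. Of 7 ciliated cell markers, 3 were as much lower and 1 as much higher. The part of these markers was not tested. Mitotic cells made up 6.27% of the p63-KO comparison cells and 21.5% of the wild-type ones, and the p63-KO mitosis list had a median log2 ratio of 0.44, with 14 of 33 genes at least 1.5-fold higher.

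**Figure D5:**
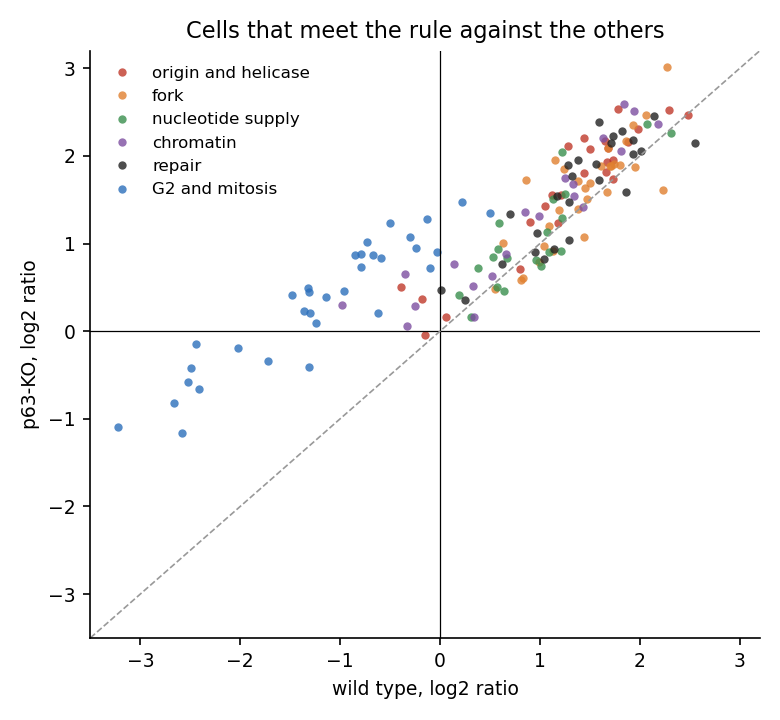
Log2 ratio (1 CPM added) of the cells that meet the rule against the other low-keratin cells, wild type on the horizontal and p63-KO epithelial cells on the vertical axis, 1 point per gene of 6 lists, with the dashed line at equal ratios. Replication genes gather in the upper right, and mitosis genes lie above the line, with medians of -1.15 and 0.44.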

How the data were processed

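The authors deposited raw counts: UMIs of 32285 genes in each cell barcode, in whole numbers, with no sign of normalization in the files. Cell Ranger 7.1.0 and the build mm10 are named per the submitters' processing notes. Which annotation was used, how cells were called and whether intronic reads counted is not given in the sources used here. Totals were 76472445 UMIs in the wild-type and 86504624 in the p63-KO library.

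UMIs were summed over the cells of a group and scaled to CPM. Folds have exact conditional binomial intervals, levels exact Poisson intervals and shares exact Clopper-Pearson intervals. The calculation was tested on simulated data. Gene coordinates are from GENCODE M21 (mm10). Doublets were scored against simulated doublets (40 neighbours, 30 components, 2000 variable genes), and the 268 wild-type cells with the highest scores (0.8% per 1000 cells) were left out only in an alternative. For thinning, 515 wild-type cells under 5000 UMIs were dropped, 61 of them in S phase.

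Named genes are the genes of the rule, per list the 5 with the largest absolute log2 ratio, up to 2 going the other way and up to 4 from 300 CPM, and outside the lists the 12 highest and 12 lowest from 50 CPM and 10% of cells. Other named list genes and the histones in the closing section were chosen after their values were seen. The cells, the lists and the rules were chosen with earlier results of these data known. Alternatives changed the limits, the comparison cells, depth, scale, pseudocount and filters. Python 3.11.15, numpy 2.4.6, scipy 1.17.1, pandas 2.3.3 and scikit-learn 1.9.0 were used. Some genes are not reported here.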

Additional observations from a re-analysis of the deposited data

How the results depend on the processing

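The genes, lists and shares were recomputed under 26 alternatives, 25 fixed with the design and 1 chosen after seeing the data, against cells neither in S phase nor mitotic. Of 76 named genes past 1.5-fold outside the rule, 59 kept their sign in all of them. No paired analysis was possible because each genotype has 1 library. The share in S phase was 22.0% from 1 CP10K, 8.27% from 4 CP10K, 11.0% with the mitosis sum under 5 CP10K and 20.8% thinned, and 12.1, 11.9, 13.3, 12.5 and 13.2% without Slfn9, Clspn, Ccne2, Exo1 or Cdc6 in the sum. All measured genes at least 1.5-fold higher numbered 865 against resting cells, 204 from 50 CPM and 196 at 2-fold, and those lower 67 from 50 CPM, 716 from 2 CPM, 526 in Y-only cells and 96 at 2-fold. From 50 CPM, 12 helicase, 17 repair and 0 lower squamous genes were counted. Squamous genes lower numbered 5 from 4 CP10K, 4 with the mitosis sum under 5, 5, 6, 4 and 5 without Slfn9, Ccne2, Exo1 or Cdc6, and 5 against cells neither in S phase nor mitotic, and basal genes lower 2 in Y-only cells. Mitosis genes higher numbered 2 from 4 CP10K, 1 without Exo1, with equal weight per cell and in Xist-only cells, 28 against resting cells (0 lower) and 18 against cells neither in S phase nor mitotic (3 lower).

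Against resting cells the sign turned for the mitosis median (2.58) and for Ccna2 (3.09), Cdkn2d (0.74), H2afx (1.36), Racgap1 (2.70), Cks2 (1.13), Nde1 (0.62), Lockd (1.84), Pttg1 (0.040), Tuba1c (0.56), Arl6ip1 (0.084), Cdca3 (1.05), Aspm (2.05), Cdc20 (1.11), Plk1 (1.37), Ccnb1 (1.64) and Cenpf (1.86). Against cells neither in S phase nor mitotic it turned for that median (1.22) and for Ccna2 (1.18), Cdkn2d (0.79), H2afx (0.76), Racgap1 (0.89), Cks2 (0.14), Lockd (0.42), Tuba1c (0.059), Aspm (0.13) and Plk1 (0.12); both comparisons lack mitotic cells. Rsph1, a ciliated cell marker, turned to 0.17 with equal weight per cell and 0.13 without cells with other types' markers, and the cause was not tested. In shallow cells the rule rests on 1 UMI, which limits the choice of single cells.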

Other observations

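Histone genes, a group chosen after their values were seen, fell into 2 patterns in the S phase cells. Of 14 with at least 10 CPM, those of the replication-dependent kind that were lowest in resting cells stood between resting and mitotic cells. Hist1h1b, a linker histone, stood at 65.9 CPM in S phase, 3.17 in resting and 348 in mitotic cells, Hist1h2ae at 18.9, 2.48 and 95.4 CPM, and Hist1h4d at 16.8, 5.05 and 99.2 CPM. Of these groups, the one called mitotic was thus highest in these genes, and the one called S phase was not. The cell cycle stage of the cells in either group was not tested. Hist1h2bc (14.2, 67.9 and 21.3 CPM), Hist1h1c (15.1, 34.5 and 37.3 CPM) and Hist3h2a (4.84, 16.6 and 16.2 CPM) were instead lowest in S phase. Slbp, which binds the stem-loop of replication-dependent histone mRNA, stood at 282 CPM in S phase, 74.5 in resting and 149.5 in mitotic cells. Most replication-dependent histone mRNA carries no poly(A) tail and is poorly captured by kits of this type, so these values are not the full level of histone mRNA.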
